A study of Homo sapiens with 6 samples.

Results

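The genes described here encode the proteins of the cytosolic ribosome. They were taken by symbol: every protein-coding gene in GENCODE 29 whose symbol is RPL or RPS, digits and at most a single letter A, X or L, together with RPLP0, RPLP1, RPLP2 and RPSA. Mitochondrial ribosomal proteins, ribosomal protein kinases and pseudogenes do not match. The rule gave 81 genes, 49 of the large subunit (RPL) and 32 of the small subunit (RPS), of the 58735 genes in the deposited table. It used no expression value. Of the 81 genes, 77 are the standard genes and 4 are paralogs of standard genes (RPL3L, RPL10L, RPL39L and RPS27L). Ribosomal proteins with other symbols (among them FAU, RACK1 and the paralogs RPL22L1, RPL26L1, RPL36AL and RPL7L1) fall outside the rule and are given only for comparison.

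The 6 mRNA libraries came from cultured prostate cancer cells of human origin. The line C4-2B MDVR was derived from C4-2B and resists the prostate cancer drug enzalutamide, and H660 (NCI-H660) is used as a model of the neuroendocrine form of the disease. Per line, 1 library was made after a control siRNA, 1 after siRNA 1 against PLXND1 and 1 after siRNA 2; PLXND1 encodes the semaphorin receptor Plexin D1. No label names separate cultures, so a p-value measures only the spread between these libraries, which may be technical. Each line is a single cell line, and a difference between the lines cannot be told apart from any other difference between the cultures.

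Most proteins of the ribosome are present in a single copy each, with the stalk proteins RPLP1 and RPLP2 as exceptions, and their messenger RNAs are among the most abundant in dividing cells. Most of these mRNAs begin with a C followed by a run of pyrimidines, the terminal oligopyrimidine or TOP motif, through which mTOR signalling and the RNA-binding protein LARP1 control their translation. Ribosomal proteins that are not built into ribosomes can bind MDM2, a ubiquitin ligase. In prostate cancer, as in other tumours, ribosome production is tied to MYC and to growth signalling.

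The start sequences show a motif found in most of these genes. The paralogs RPS27L and RPL10L lack it at the listed start, as do some standard genes, RPL3 among them. RefSeq start sequences (GRCh38.p14) were matched by symbol for 64 of the 81 genes. In each of the following lines, 15 bases before the start and 20 bases from the start are written 5′ to 3′ on the sense strand, which reads like the mRNA. Capitals mark an uninterrupted run of C and T that begins with C at the start itself and goes on for at least 4 pyrimidines, or, where there is no such run, the first transcribed base alone.
RPS27: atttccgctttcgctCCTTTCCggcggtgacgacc
RPS27L: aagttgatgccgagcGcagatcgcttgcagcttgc
RPL10: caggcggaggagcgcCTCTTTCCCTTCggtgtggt
RPL10L: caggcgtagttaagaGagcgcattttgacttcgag
RPL3: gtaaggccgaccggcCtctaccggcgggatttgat
RPL31: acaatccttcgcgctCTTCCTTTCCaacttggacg
RPL13A: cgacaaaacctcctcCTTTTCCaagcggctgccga
RPS12: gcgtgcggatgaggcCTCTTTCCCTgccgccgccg
RPL39: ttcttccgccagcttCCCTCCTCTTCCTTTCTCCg
RPL22: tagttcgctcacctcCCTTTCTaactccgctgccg
RPL11: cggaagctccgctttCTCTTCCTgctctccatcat

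The first 4 lines set each paralog under its standard counterpart. RPS27 (chr1:153990747-153990781, plus strand) starts with a run of 7 pyrimidines, and RPS27L (chr15:63157458-63157492, minus strand) starts with a G. RPL10 (chrX:154398362-154398396, plus strand) starts with a run of 12 at 1 of its 3 listed starts, and RPL10L (chr14:46651762-46651796, minus strand) starts with a G. RPL3 (chr22:39319604-39319638, minus strand) starts with a C, but a purine follows too soon for the run to be counted. RPL31 lies at chr2:101002274-101002308 and RPL13A at chr19:49487593-49487627, both on the plus strand; these and RPL3 are among the genes that differed most between the lines. RPS12 (chr6:132814554-132814588, plus strand) is among the most abundant members. RPL39 (chrX:119791611-119791645, minus strand) has the longest run, 19 bases. RPL22 (chr1:6199576-6199610, minus strand) has the motif and was level between the lines, and RPL11 (chr1:23691791-23691825, plus strand) encodes an MDM2-binding protein. A run of this kind was found in 46 of the 64 matched genes (71.9%) and in 901 of 14832 other coding genes in the same table (6.07%). Counted by listed starts, it was found in 58.2% of the 79 starts of these genes and in 4.60% of the 21021 coding starts. Only the sense strand was searched. A gene without a match has only no such letters at the listed start.

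The ribosomal protein genes gave a larger share of the mRNA in C4-2B MDVR than in H660. In C4-2B MDVR they took 6.97% of all fragments in the control library, 6.01% with siRNA 1 and 8.20% with siRNA 2. In H660 they took 2.98% in the control, 2.91% with siRNA 1 and 3.22% with siRNA 2. The mean share was 7.06% ± 1.10 (SD, n = 3 libraries) in C4-2B MDVR and 3.04% ± 0.164 (SD, n = 3 libraries) in H660, a ratio of 2.32, and the libraries of the lines did not overlap. The exact 95% binomial interval of the share, which covers counting error only, was 6.96 to 6.98% in the C4-2B MDVR control and 2.98 to 2.99% in the H660 control.

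**Figure D1:**
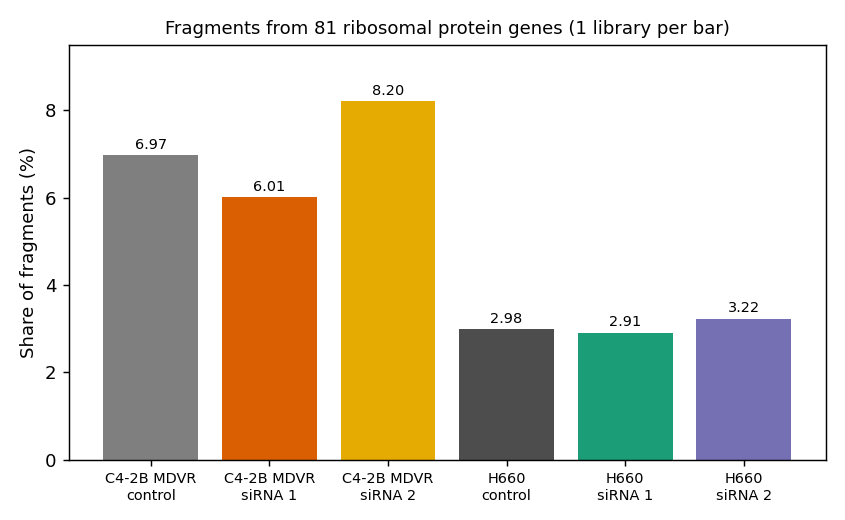
Share of all fragments (percent, vertical axis) that came from the 81 ribosomal protein genes in each of the 6 libraries, 1 library per bar and no error bar. The C4-2B MDVR libraries run from 6.01 to 8.20% and the H660 libraries from 2.91 to 3.22%.

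Mitochondrially encoded genes moved with the line as well, and their part in the share was not tested beyond the following values. In C4-2B MDVR they took 3.38% (control), 7.44% (siRNA 1) and 6.83% (siRNA 2) of all fragments, and in H660 8.58%, 9.47% and 9.64%. Among fragments of nuclear protein-coding genes alone, the ribosomal protein genes took 7.37%, 6.62% and 8.99% in C4-2B MDVR and 3.36%, 3.30% and 3.67% in H660. The libraries held 17655802 to 24105369 fragments. As a check of the cell lines, all 7 luminal prostate markers tested (KLK3, KLK2 and others) were lower in H660 and all 7 neuroendocrine markers (CHGA, SYP and others) were higher in H660 by limma's test. In a bulk library, fewer cells of a type and less RNA per cell cannot be told apart.

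Levels are given as FPKM, fragment numbers divided by the exon length of the gene and by the size of the library, which sets genes of different lengths on a common scale. Of the 81 genes, 79 had a mean of at least 1 FPKM in at least 1 line and were tested, and RPL3L and RPL39L were not. The median of the 79 was 223 FPKM in the C4-2B MDVR control, 220 with siRNA 1 and 283 with siRNA 2. In H660 it was 93.1, 90.6 and 102 FPKM. These genes filled 37, 32 and 39 of the 100 highest places among all genes in the C4-2B MDVR libraries and 15, 14 and 17 in the H660 libraries. Levels of at least 50 FPKM were reached by 68 to 69 members in C4-2B MDVR and 58 to 59 in H660.

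**Figure D2:**
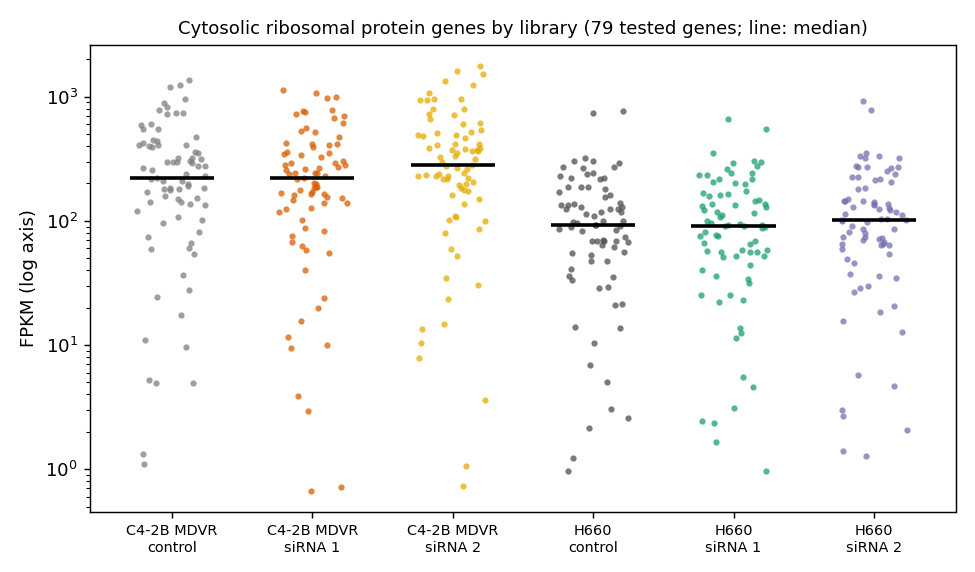
Level of each of the 79 tested ribosomal protein genes in each library (FPKM, log axis), 1 point per gene, with the median as a bar. RPL10L is listed at 0 in the H660 libraries and is not drawn there. The medians are 220 to 283 FPKM in C4-2B MDVR and 90.6 to 102 FPKM in H660.

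The FPKM values of the standard genes differed widely, from 0.67 FPKM for RPS10 to 1768 FPKM for RPS2. The low end of this range is uncertain, as described below. RPL41, which encodes the smallest ribosomal protein, was at 1352, 1060 and 1623 FPKM in C4-2B MDVR (control, siRNA 1, siRNA 2, the order used from here on) and at 733, 547 and 773 FPKM in H660. RPS2, a small-subunit protein at the mRNA entry site, was at 1239, 1135 and 1768 FPKM in C4-2B MDVR and 292, 299 and 320 FPKM in H660. RPL8, a large-subunit protein near the peptidyl transferase centre, was at 964, 985 and 1230 FPKM in C4-2B MDVR and 760, 658 and 924 FPKM in H660. RPS2 was above RPL8 in every C4-2B MDVR library and below it in every H660 library. RPL41, RPL7A, RPL8, RPS12, RPS18 and RPS2 were among the 10 highest members in all 6 libraries. The 10 highest members held 36.5 to 38.8% of the members' summed FPKM in each library.

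The order of the genes was nearly the same within a line and similar between lines. Over the 77 standard genes, Spearman's rho of the level was 0.897 between the C4-2B MDVR and H660 controls, as a description across genes, which are not independent replicates. The annotated exon length of a gene, which runs from 767 to 9845 bases with a median of 3002, went with the level with a rho of −0.576 over the same 77 genes. FPKM divides by this length, so rarely used long exons in the annotation lower the value of a gene. The difference between the lines had a rho of 0.108 with exon length over the 79 tested genes.

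At the low end lay genes whose standard protein is in every ribosome. RPS10 was at 1.10, 0.67 and 0.73 FPKM in C4-2B MDVR and at 0.96, 0.97 and 1.27 FPKM in H660. RPL36A was at 1.33, 0.71 and 1.06 FPKM in C4-2B MDVR and 1.22, 1.65 and 1.41 FPKM in H660. These levels are far under the members' median, and how reads that match several genes were counted is not given in the sources used here. The paralog RPL36AL, whose protein is nearly the same as that of RPL36A, was at 213, 215 and 245 FPKM in C4-2B MDVR and 65.1, 59.0 and 80.1 FPKM in H660. Likewise RPL26 was at 9.65, 9.44 and 14.7 FPKM in C4-2B MDVR and 2.14, 2.35 and 2.07 FPKM in H660, while its paralog RPL26L1 was at 36.0, 31.8 and 42.3 FPKM and 17.9, 15.6 and 16.1 FPKM. The levels of RPS10, RPL36A, RPL26 and RPL17 are therefore uncertain. The readthrough genes that share exons with RPS10, RPL36A and RPL17 were at 0.167 FPKM or less in every library.

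Pseudogene copies also took fragments. GENCODE lists 1132 pseudogenes of these genes, of which 113 were above 1 FPKM in at least 1 library, and together they took 0.249 to 0.340% of all fragments in C4-2B MDVR libraries and 0.119 to 0.127% in H660 libraries. RPL9P9 stood at 672, 708 and 757 FPKM in C4-2B MDVR, against 54.1, 55.4 and 59.0 FPKM for RPL9 itself. In H660 RPL9P9 stood at 302, 310 and 373 FPKM, against 21.3, 23.0 and 29.9 FPKM for RPL9. The annotated exon length is 717 bases for RPL9P9 and 5022 for RPL9, so the gap in fragments is smaller than the gap in FPKM. How fragments were divided between such copies is equally not given. In 29 members no pseudogene or readthrough gene was above 1 FPKM in any library, and values for these alone are given beside the results they touch.

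The difference between the lines was the largest feature of these genes. By limma's moderated test on log2(FPKM + 1), with line and treatment as terms, 55 of the 79 tested genes were lower in H660 at an adjusted p of at most 0.05 and at least 2-fold, and 0 were higher. Over all 15638 genes tested, 17.9% were called lower in H660 and 20.1% higher. The median difference of the 79 genes was −1.37 on the log2 scale, or 2.59-fold lower in H660, against −0.00 over all genes tested. It was −1.49 over the 47 large-subunit and −1.28 over the 32 small-subunit genes. Over the 29 members without an expressed pseudogene or readthrough gene it was −1.49. Every scaling tried left the median below 0, and it was smallest, at −0.94, after quantile normalization. The median over all genes tested was not matched to the members' level, and medians over more abundant genes are given by chromosome below.

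Of the 79 genes, 73 were lower in every H660 library than in every C4-2B MDVR library, whatever the siRNA, against 37.4% of all genes. A further 16 genes passed the adjusted p but not 2-fold, RPL41 and RPS14 among them, and 8 did not pass, RPL8, RPL15, RPL22, RPL36A, RPS10, RPS15 and RPS20 among them. The quartiles of the difference were −1.78 and −0.95 on the log2 scale, so the members did not shift by the same factor. RPL10 (−1.03) and RPS27 (−1.09) were called by a small margin. Without the C4-2B MDVR siRNA 2 library they stood at −0.93 and −0.97, under 2-fold, and RPL10 stood at −0.999 without the H660 siRNA 1 library; quantile normalization, the same summed FPKM and voom also left both under 2-fold. RPL41 (−0.97) passed 2-fold when 1 of 4 libraries was left out, with −1.13 without the C4-2B MDVR siRNA 1 library.

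**Figure D3:**
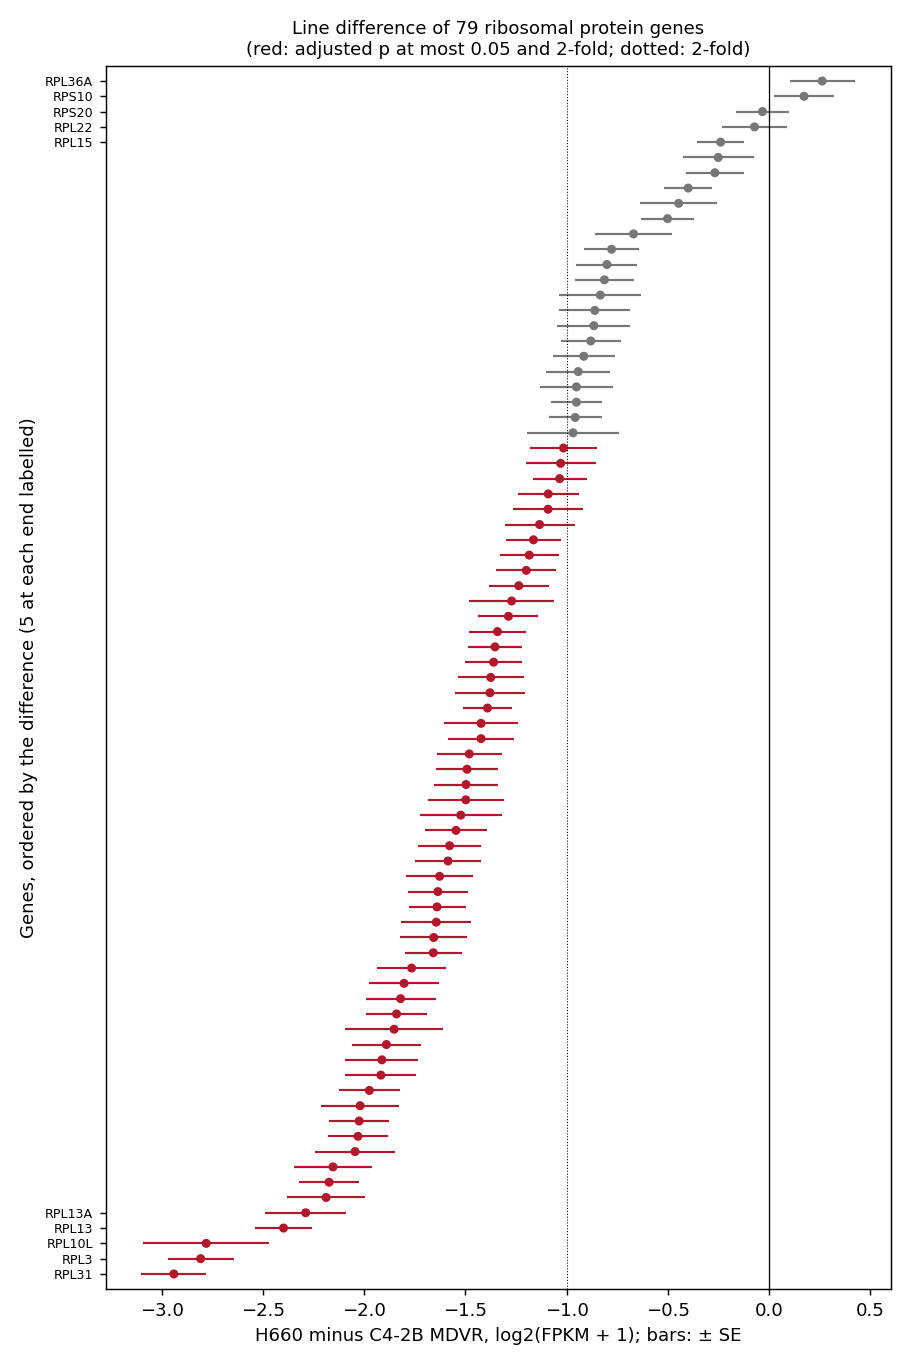
Difference between the lines for each of the 79 tested genes (H660 minus C4-2B MDVR, log2(FPKM + 1), horizontal axis), with ± SE of limma's fit; red marks the 55 genes past both thresholds the dotted line marks 2-fold, and the 5 genes at each end are labelled. Values run from −2.94 for RPL31 to 0.26 for RPL36A.

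RPL31, which sits at the exit of the peptide tunnel, differed most. It was at 108, 118 and 150 FPKM in C4-2B MDVR and at 14.1, 13.7 and 18.5 FPKM in H660. The ratio of the line means was 8.13, and the log2 difference was −2.94 with an SE of 0.16 and an adjusted p of 2.4e-05 by limma. RPL3, a large-subunit protein that reaches towards the peptidyl transferase centre, was at 782, 777 and 1061 FPKM in C4-2B MDVR and at 125, 118 and 124 FPKM in H660, a ratio of 7.14. RPL13 was at 298, 284 and 362 FPKM against 55.3, 55.8 and 64.8 FPKM, a ratio of 5.37. RPL13A, which also takes part in a complex that silences inflammatory transcripts, was at 1187, 970 and 1531 FPKM against 237, 235 and 268 FPKM, a ratio of 4.98. In each of these 4 genes the lowest C4-2B MDVR library lay above the highest H660 library by more than the whole range of either line.

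At the other end, several members were level between the lines. RPS20 was at 219, 238 and 278 FPKM in C4-2B MDVR and at 244, 235 and 237 FPKM in H660, and its log2 difference of −0.03 had an SE of 0.13. RPL22 was at 27.8, 23.8 and 34.6 FPKM against 28.9, 25.5 and 26.7 FPKM, a difference of −0.07 with an SE of 0.16. RPL15 was at 190, 199 and 228 FPKM against 163, 174 and 185 FPKM, a difference of −0.24 with an SE of 0.12, which turned to 0.19 after quantile normalization and 0.06 after scaling to the same summed FPKM. The libraries of the lines overlapped for RPS20 and RPL22 and did not for RPL15. The positive differences of RPL36A (0.26, SE 0.16) and RPS10 (0.17, SE 0.15) rest on levels near 1 FPKM and turned negative after quantile normalization, at −0.06 and −0.22.

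The stalk proteins bind the elongation factors. RPLP0, the base of the stalk, was at 721, 667 and 935 FPKM in C4-2B MDVR and 228, 244 and 272 FPKM in H660, a ratio of 3.12. RPLP1 was at 305, 293 and 414 FPKM against 181, 166 and 204 FPKM, a ratio of 1.84 that stayed under the 2-fold threshold. RPLP2 was at 278, 244 and 365 FPKM against 130, 130 and 137 FPKM, a ratio of 2.23. RPLP1 and RPLP2 form dimers on RPLP0, and the lower-to-higher order of the 3 ratios was RPLP1, RPLP2, RPLP0; the ratios were not tested against each other.

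Among the proteins that bind MDM2, RPL11 was at 149, 171 and 195 FPKM in C4-2B MDVR and 63.9, 52.4 and 64.4 FPKM in H660, a ratio of 2.85. RPL23 was at 184, 165 and 228 FPKM against 47.6, 56.1 and 54.1 FPKM, a ratio of 3.66. RPL5, which reaches MDM2 together with RPL11 and the small ribosomal RNA of the large subunit, was at 199, 153 and 245 FPKM against 117, 122 and 129 FPKM, a ratio of 1.62 that passed the adjusted p (0.0203 by limma) but not 2-fold. The line difference of MDM2 itself did not pass, at 6.83, 7.41 and 10.9 FPKM against 6.31, 7.57 and 6.35 FPKM.

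Of 16 members in which mutations are known in Diamond-Blackfan anaemia, a failure of red cell production, 9 were called lower in H660, against 55 of all 79 members (69.6%) and 17.9% of all genes. Their median difference was −1.41, against −1.37 for all 79. RPS26, one of them, was at 317, 291 and 370 FPKM against 92.7, 81.2 and 72.5 FPKM and was called. RPSA, also known as the laminin receptor, was at 390, 359 and 535 FPKM against 125, 135 and 144 FPKM, a ratio of 3.19. RPS27A, whose protein is made as a fusion with ubiquitin, was at 153, 162 and 173 FPKM against 89.0, 75.7 and 86.7 FPKM, a ratio of 1.94 that did not reach 2-fold.

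Genes with and without a pyrimidine run at the start had similar medians, and the difference was not tested. The median line difference was −1.38 over the 46 tested genes with a run and −1.53 over the 18 without. In C4-2B MDVR the medians with a run were −0.04 with siRNA 1 and 0.37 with siRNA 2, and without a run −0.08 and 0.32. In H660 they were −0.02 and 0.11 with a run, and −0.02 and 0.07 without.

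Lists of other genes that work with the ribosome had medians below 0 but nearer to it than the −1.37 of the ribosomal protein genes. Most of their members were not called, except among the ribosomal proteins outside the rule. Over all genes tested 17.9% were called lower in H660. The 7 ribosomal proteins outside the rule had a median line difference of −1.02, with 4 called lower. Translation elongation factors had a median of −0.93 (4 of 9 tested called lower) and subunits of initiation factor 3, which joins the small subunit to mRNA, −0.82 (4 of 13). Other initiation factors had a median of −0.37, with 1 of 17 called lower. The 10 further TOP genes listed had a median of −0.53 with 3 called lower, ribosome assembly factors −0.62 with 8 of 31, and RNA polymerase I subunits and factors, which make ribosomal RNA, −0.58 with 3 of 14. In none of these lists was a gene called higher in H660. Among regulators of these mRNAs 4 of 15 were called lower and 2 higher. MYC, a transcription factor that drives ribosomal protein genes, was at 115, 54.0 and 146 FPKM in C4-2B MDVR and 3.92, 3.98 and 6.05 FPKM in H660. These lists were not tested against each other, and a link between MYC and the line difference was not tested.

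PLXND1 was further below its control in C4-2B MDVR than in H660. In C4-2B MDVR it stood at 0.212 times the control with siRNA 1 and 0.418 times with siRNA 2. In H660 it stood at 0.835 and 0.826 times the control. By limma, no gene of the 15638 was called for the knockdown in both lines, in C4-2B MDVR or in H660, nor for an effect that differs between the lines, 0% in each case, PLXND1 and the ribosomal protein genes included. At an unadjusted p under 0.05 the counts over all genes were 654, 921, 647 and 701, and over the 79 members 0, 1, 0 and 0. The count test, limma's voom on the fragments recovered from the FPKM steps, also called 0 genes in each of these comparisons.

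In C4-2B MDVR the siRNAs gave ribosomal protein levels on opposite sides of the control. The median difference of the 79 genes from the control was −0.08 with siRNA 1 and 0.36 with siRNA 2 on the log2 scale, against 0.01 and 0.01 over all genes tested. The siRNA 1 median stayed below 0 and the siRNA 2 median above 0 under every scaling tried, but the sizes depended on it: −0.155 and 0.078 after quantile normalization, and −0.21 and 0.22 with voom. Over the 29 members without an expressed pseudogene or readthrough gene the medians were −0.04 with siRNA 1, nearer to the control, and 0.39 with siRNA 2. Of the 79 genes, 50 were below the control with siRNA 1 and above it with siRNA 2, a pattern of 19.4% of all genes. Another 26 were above the control with both, against 32.0% of all genes, and 3 were below with both, RPL36A and RPS10 among them, against 25.8%. The siRNA 2 library was above the siRNA 1 library in 78 of the 79, the exception being RPS27L, against 48.0% of all genes. Both comparisons share the single control library, and there is no repeat of either siRNA, so a difference between the siRNAs cannot be told apart from a difference between these libraries.

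**Figure D4:**
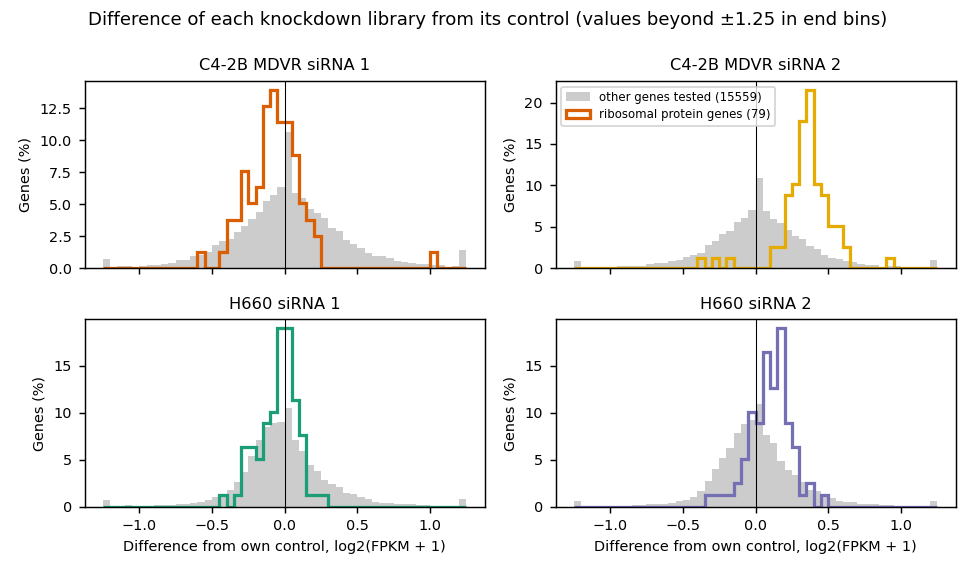
Difference of each knockdown library from the control of its line (log2(FPKM + 1), horizontal axis) for the 79 ribosomal protein genes (coloured line) and the 15559 other genes tested (grey), as a percent of the genes in each set. In C4-2B MDVR the members' medians lie at −0.08 with siRNA 1 and 0.36 with siRNA 2, and in H660 at −0.02 and 0.10.

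The members kept close together within each library. Among genes of at least 50 FPKM in both libraries compared, the SD of the difference from the control was 0.145 over 68 members with siRNA 1 in C4-2B MDVR, against 0.447 over 726 other genes. With siRNA 2 it was 0.111 over 68 members against 0.382 over 743 other genes. In H660 these SDs were 0.132 over 58 members against 0.178 over 585 other genes with siRNA 1, and 0.132 over 58 against 0.2003 over 589 with siRNA 2. The members therefore lay nearer to each other than other abundant genes did, in all 4 comparisons, with the narrower margin in H660.

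Single genes followed the shared shift with small departures. RPS12, in the small subunit, was at 889, 725 and 1324 FPKM in C4-2B MDVR, below the control with siRNA 1 and above it with siRNA 2 like most members. The members highest above the shared shift with both siRNAs included RPL34, at 66.6, 76.0 and 99.96 FPKM, RPL38, at 59.6, 63.3 and 85.6 FPKM, and RPL37, at 36.8, 39.8 and 51.7 FPKM. In each of these 3 the order of the libraries was control, siRNA 1, siRNA 2. RPS7 (96.7, 83.3 and 106 FPKM) and RPS15 (406, 326 and 479 FPKM) lay below the shared shift with both siRNAs, though above the control with siRNA 2.

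RPL36A and RPS10, below the control with both siRNAs in C4-2B MDVR, were also the lowest standard genes there. RPL36A stood at 0.538 times the control with siRNA 1 (95% exact binomial interval 0.384 to 0.748) and 0.796 times with siRNA 2 (0.579 to 1.09), and RPS10 at 0.610 (0.381 to 0.962) and 0.662 (0.404 to 1.06). These intervals cover counting error only. Neither passed limma's test, with an adjusted p of 0.917 for RPL36A and 0.904 for RPS10.

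RPS27L, a paralog of RPS27, departed furthest from its family in the C4-2B MDVR siRNA 1 library. Its change there, minus the members' median change, was 1.09 on the log2 scale. With siRNA 2 in C4-2B MDVR this value was 0.14 for RPS27L, against 0.57 for RPL10L and −0.64 for RPS10. The level of RPS27L in C4-2B MDVR was 5.27 FPKM in the control, 11.6 with siRNA 1 and 7.84 with siRNA 2, from 997, 2137 and 1162 fragments. It stood at 2.21 times the control with siRNA 1 (95% exact binomial interval 2.05 to 2.38) and 1.49 times with siRNA 2 (1.37 to 1.62). It was the 1 member at least 2-fold above the control with siRNA 1 on the log2(FPKM + 1) scale, where 2.26% of all genes were. RPS27 itself was at 607, 612 and 793 FPKM, so that RPS27L went from 0.868% to 1.90% and 0.988% of its FPKM. In H660 RPS27L was at 2.59, 2.45 and 3.02 FPKM and RPS27 at 303, 303 and 331 FPKM. There the share stayed between 0.809% and 0.911%. The size of these shares depends on the annotated exon lengths, 9127 bases for RPS27L and 1035 for RPS27. In fragments, RPS27 had 13024, 12761 and 13333 in C4-2B MDVR, so RPS27L made up a larger share by that measure. The mean effect of the siRNAs in C4-2B MDVR was 0.75 on the log2 scale with an SE of 0.27, an unadjusted p of 0.0461 and an adjusted p of 0.847 by limma, and the alternatives gave an adjusted p from 0.240 to 1.00. The difference of the effect between lines was −0.70 with an SE of 0.38 and did not pass either, with an adjusted p of 0.985.

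CDKN1A, which encodes a cell cycle inhibitor, was at 47.5, 422 and 346 FPKM in C4-2B MDVR and at 92.6, 96.3 and 94.5 FPKM in H660, and its adjusted p in C4-2B MDVR was 0.195 by limma. These values stand beside those of RPS27L as measurements, and a link between them was not tested.

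**Figure D5:**
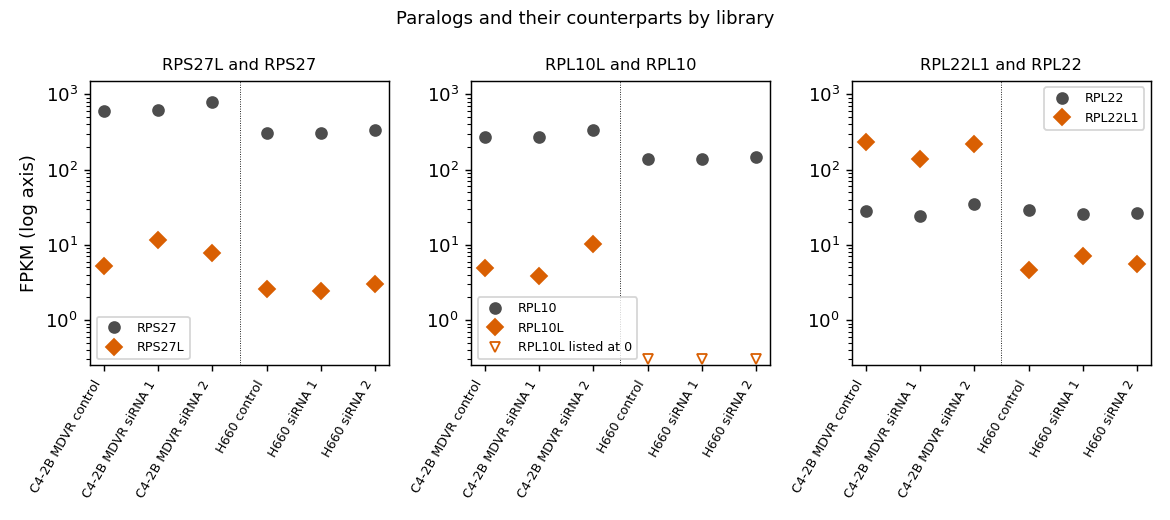
Levels of 3 paralogs and their standard counterparts in each library (FPKM, log axis): RPS27L with RPS27, RPL10L with RPL10 and RPL22L1 with RPL22; open triangles mark RPL10L where it is listed at 0. RPS27L reaches 11.6 FPKM in the C4-2B MDVR siRNA 1 library and stays at 3.02 FPKM or less in H660, and RPL22L1 lies above RPL22 in C4-2B MDVR and below it in H660.

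The other paralogs were low or absent from the counts. RPL10L, a testis paralog of RPL10 with no intron, was at 4.93, 3.85 and 10.3 FPKM in C4-2B MDVR, from 83, 63 and 136 fragments. In H660 it had 0 fragments in each library, which allows up to 0.149, 0.157 and 0.143 FPKM at 3 fragments per library. The RPL10L value in the lowest C4-2B MDVR library, siRNA 1, was 24.5-fold higher than the highest of these limits. That ratio leaves out the counting error of the C4-2B MDVR value. By exact 95% Poisson intervals, RPL10L had a lower limit of 2.96 FPKM in that library. Its upper limit was 0.193 FPKM in the H660 siRNA 1 library. RPL10, an X-linked gene close in sequence to RPL10L, was at 267, 269 and 335 FPKM in C4-2B MDVR and 138, 138 and 146 FPKM in H660. RPL10L thus held 1.43 to 3.08% of the FPKM of RPL10 in C4-2B MDVR. That share depends on the annotated exon lengths, 812 bases for RPL10L and 4825 for RPL10. In fragments, RPL10 had 26722, 26123 and 26220 in C4-2B MDVR, so RPL10L made up a smaller share by that measure. RPL3L, a muscle paralog of RPL3, had 23, 18 and 22 fragments in C4-2B MDVR and 8 in each H660 library, at most 0.491 FPKM. RPL39L, a testis paralog of RPL39, had 0 fragments in every library, which allows up to 0.174 FPKM at 3 fragments. RPL39 was at 143, 164 and 197 FPKM in C4-2B MDVR and 62.1, 50.8 and 73.6 FPKM in H660. The limits for RPL10L and RPL39L cover counting error only. EEF1G, a translation elongation factor gene, was also listed at 0 in every library. How fragments were assigned to genes is not given, so a listed 0 does not show that a gene was silent.

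RPL22 and its paralog RPL22L1 exchanged order between the lines. RPL22 was level, as given above, while RPL22L1 was at 230, 137 and 216 FPKM in C4-2B MDVR and 4.67, 7.10 and 5.62 FPKM in H660. RPL22L1 was thus 5.76 to 8.27 times RPL22 in C4-2B MDVR and 0.162 to 0.279 times in H660. The line difference of RPL22L1 was −4.83 on the log2 scale with an SE of 0.24, and it was called. Within C4-2B MDVR, RPL22L1 stood at 0.596 times the control with siRNA 1 and 0.940 times with siRNA 2, and no knockdown effect on it was called.

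In H660 the ribosomal protein genes stayed nearer to their control. The median difference was −0.02 with siRNA 1 and 0.10 with siRNA 2, against −0.02 and −0.00 over all genes. Over the 29 members without an expressed pseudogene or readthrough gene it was −0.004 and 0.14. Of the 79 genes, 28 were above the control with both siRNAs, against 32.1% of all genes, and 14 were below with both, against 38.3%. A further 32 were below with siRNA 1 and above with siRNA 2, against 14.5%. RPL9, at 21.3, 23.0 and 29.9 FPKM, and RPS15A, at 10.4, 11.4 and 12.8 FPKM, lay highest above the shared shift. RPL17, at 6.95, 5.52 and 5.79 FPKM, and RPS26 lay lowest. The places of RPL9 and RPL17 are uncertain, because it is not given how fragments were assigned among genes with similar sequences. RPLP0 and RPSA were above the control with both siRNAs.

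Genes that work with the ribosome were listed in the same way. In C4-2B MDVR the 13 subunits of initiation factor 3 had medians of −0.10 with siRNA 1 and 0.23 with siRNA 2, and the siRNA 2 library was above the siRNA 1 library in 13 of 13. Ribosome assembly factors had medians of −0.42 and 0.09, with siRNA 2 above siRNA 1 in 27 of 31. Over all genes tested that order held in 48.0%. It held in 6 of 9 elongation factors (medians −0.04 and 0.09), 10 of 17 other initiation factors (−0.07 and 0.07), 6 of 10 further TOP genes (0.00 and 0.23) and 9 of 15 regulators (−0.07 and 0.10). It also held in 7 of 7 ribosomal proteins outside the rule (−0.18 and 0.23) and in 11 of 14 RNA polymerase I genes (−0.12 and 0.15). The assembly factor NOP58, a core protein of the particles that methylate ribosomal RNA, was at 36.3, 19.3 and 30.2 FPKM, and NOC2L was at 58.2, 42.8 and 38.3 FPKM. MYC, whose levels are given above, was lower with siRNA 1 than in the control and higher with siRNA 2. A link between MYC and the ribosomal protein genes was not tested. The knockdown comparisons called 0 genes in each list.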

How the data were processed

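The deposited values were FPKM per Ensembl gene, computed by the authors with HISAT and Cufflinks on hg18, per the submitters' processing notes, which name no versions; reads were 150-base paired ends. All 58735 IDs are in GENCODE 29 (GRCh38), which gave symbols, exon lengths and pseudogenes. FPKM times exon length came out as whole fragments, within 0.05, in 100.0% of the genes of at most 100 fragments; the fragments give the shares and intervals. The total implied by that step was below the recovered total in both C4-2B MDVR knockdown libraries and above it in the other 4 libraries, so voom, which does not use it, is an alternative.

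Genes with a mean of at least 1 FPKM in at least 1 line (15638) were tested by limma (version 3.58.1, R 4.3.3) on log2(FPKM + 1), two-sided, with an intensity trend and Benjamini-Hochberg adjustment at 0.05. Line and treatment were additive terms (3 residual degrees of freedom); effects within a line and their difference came from a fit of 4 groups (2 residual degrees of freedom), whose spread comes from the knockdown pairs, the lone controls being assumed to vary alike. For a call between lines at least 2-fold was also required. The fit was tested on simulated data. Named genes are the paralogs and their counterparts, the stalk, MDM2-binding, RPSA and RPS27A genes, the 5 highest and lowest by level and the 5 largest each way per comparison, and up to 4 genes of each comparison list. The members and lists were chosen with earlier results of these data known. Alternatives changed the pseudocount, filter, scaling, test, replicate block and libraries used. Some genes that this rule takes are not reported here.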

Additional observations from a re-analysis of the deposited data

Results flagged for a closer look

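A set of 6 members had knockdown effects of opposite sign in the lines, with both siRNA libraries of each line on the same side of their control. The difference of the effect (H660 minus C4-2B MDVR, log2) was −0.37 for RPL35A, from 0.23 in C4-2B MDVR and −0.14 in H660. For RPS25 it was −0.47, from 0.26 and −0.20, for RPS20 −0.28, from 0.23 and −0.05, and for RPS27A −0.27, from 0.13 and −0.13. The opposite order held for RPL36A, at 0.50 (−0.31 and 0.19), and RPS10, at 0.42 (−0.31 and 0.11), both with levels near 1 FPKM. None passed limma's test of the difference, each with an adjusted p of 0.985. In C4-2B MDVR, RPL35A was at 238, 260 and 299 FPKM, RPS25 at 300.3, 338 and 385 FPKM, RPS20 at 219, 238 and 278 FPKM and RPS27A at 153, 162 and 173 FPKM. In H660 RPL35A was at 68.3, 56.2 and 68.2 FPKM, RPS25 at 124, 98.8 and 117 FPKM, RPS20 at 244, 235 and 237 FPKM and RPS27A at 89.0, 75.7 and 86.7 FPKM.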

How the results depend on the processing

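The members' lower level in H660 kept its direction under every alternative run. Their median line difference was −0.94 after quantile normalization and −1.08 after scaling to the same summed FPKM over nuclear coding genes, and members called lower numbered 35 after quantile normalization, 44 to 55 under the other settings and 49 to 62 when 1 library was left out. Scaling to the same summed FPKM moved the all-gene median by 0.24 and voom by 0.17. Quantile normalization reversed the line differences of RPS10 (−0.225), RPL36A (−0.060), RPL15 (0.19) and RPS15 (0.38); the same summed FPKM reversed RPL15 (0.060) and RPS15 (0.049). The cause was not tested.

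The members' median knockdown effect in C4-2B MDVR, 0.16 as the mean of both siRNAs, was −0.032 after quantile normalization and ran from −0.079 without siRNA 2 to 0.36 without siRNA 1; in H660 it was 0.03 and ran from −0.019 without siRNA 2 to 0.10 without siRNA 1. With no filter on low values, 851 genes were called for the knockdown in C4-2B MDVR, 876 in H660 and 1372 for the difference of the effect; the cause was not tested. In H660, 1 gene was called with a pseudocount of 0.1, after quantile normalization, with the same summed FPKM and in the fit with a replicate block for the siRNA number. The replicate block gave 5993 line differences against 5946 and left 55 members called; the numbers name siRNAs and do not pair the libraries, whose same-numbered deviations had a correlation of −0.004. Leaving out a control left no fit within its line.

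As fragments per 100 of other nuclear coding genes, the members stood at 7.96, 7.09 and 9.88 in C4-2B MDVR and 3.47, 3.41 and 3.80 in H660. With annotated pseudogenes added, their shares were 7.26%, 6.26% and 8.54%, and 3.10%, 3.03% and 3.35%.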

Other observations

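The line difference of these genes varied by chromosome. The 4 tested members on chromosome 8 (RPL7, RPL8, RPL30 and RPS20) had a median of −0.42 with 0 called lower, while the 577 genes tested there had a median of 0.39. On chromosome 17 all 6 members were called lower, with a median of −1.75 against −0.30 over 992 genes, and on chromosome 19 it was 9 of 12, with a median of −1.43 against 0.30 over 1088 genes. Over genes of at least 10 FPKM the medians were 0.38 on chromosome 8, −0.55 on chromosome 17 and 0.07 on chromosome 19. These values were looked at after the results were known and were not tested.

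Among annotated pseudogenes, some had FPKM values far from those of their parent genes. RPS2P5, a copy of RPS2, was at 646, 552 and 854 FPKM in C4-2B MDVR and 11.5, 15.8 and 14.7 FPKM in H660. RPS28P7, a copy of RPS28, was at 884, 867 and 1319 FPKM in C4-2B MDVR and 693, 745 and 636 FPKM in H660, while RPS28 itself was at 228, 219 and 313 FPKM and 86.4, 90.0 and 90.4 FPKM. The annotated exon length is 210 bases for RPS28P7 and 2119 for RPS28, and 879 for RPS2P5 and 2413 for RPS2. FPKM divides by this length, so a higher FPKM of RPS28P7 does not mean that it took more fragments than RPS28. Both copies were picked for their levels, and the differences were not tested.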
